A study of Mus musculus with 12 samples.

Results

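Integrins are cell-surface receptors, each built from an alpha and a beta subunit, that hold cells to the surrounding matrix. The genes described here are 10 integrin subunits that bind matrix ligands. They were chosen by name and grouped by ligand class: Itga1, Itga2 and Itga11 for collagen, Itga3 and Itga6 for laminin, and Itga5 and Itgav with the beta subunits Itgb3 and Itgb5 for ligands with an arginine-glycine-aspartate (RGD) sequence. Itgb1 is the beta subunit that all 7 alpha subunits can pair with. The 10 genes are among 35214 genes measured, and 16 other integrin subunit genes were set beside them. These genes and the other gene lists were chosen with earlier results of these data known. Counts of called genes set against the share of all genes are therefore descriptions.

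RNA came from Ocy454, a mouse osteocyte-like cell line that was differentiated in culture for 5 days before treatment. Every culture then had 1 h of pretreatment and 48 h of treatment, and polyadenylated RNA was sequenced on differentiation day 7. The 4 groups of 3 libraries were DMSO, the vehicle alone; DMSO+FGF2, vehicle with 2 ng/mL fibroblast growth factor 2; BGJ398, the FGF receptor kinase inhibitor at 200 nM; and BGJ398+FGF2, inhibitor at 200 nM with 2 ng/mL FGF2. The design asks what FGF2 does to these cells and which part of it needs FGF receptor activity. All groups share 1 cell line on standard culture plastic, and the labels name only triplicates, so the p-values rest on how far triplicates differed, and some of that difference may be technical.

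The alpha subunit of an integrin largely sets the ligand, while the beta subunit's tail recruits talin, kindlin and other adaptors that link the receptor to actin. Osteoblasts and osteocytes sit in a matrix dominated by collagen type I, and Itgb1-containing collagen and fibronectin receptors are known for their part in how these cells attach and sense load. In mouse, Itga11 with Itgb1 is a receptor for fibrillar collagens, and Itga1 with Itgb1 binds collagen type IV as well as fibrillar collagens. The receptors of Itgav with Itgb3 or Itgb5 bind vitronectin, osteopontin and other RGD proteins.

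Depth was 18951710 to 27716975 reads per library, and 12542 genes passed a filter on low counts, 9 of the 10 subunits among them. Itga2 did not pass, with 4 reads in the 12 libraries. Library pairs within a group differed by 3.21 to 24.8 times the counting noise per gene, so none was treated as a duplicate. BGJ398 replicate 1, DMSO+FGF2 replicate 2 and BGJ398+FGF2 replicate 2 deviated from their groups in the same direction, on an axis with 22.7% of the within-group variance, and results that rest on them are also given without them. They were picked from these data by that deviation, so leaving them out narrows the spread used by the tests. A call gained or an adjusted p lowered in this way is no independent support. Of the 7 osteoblast-lineage genes, Col1a2, Col1a1 and Sparc were the highest, at 2514, 2452 and 2156 TPM (a length-corrected share of all transcripts) over the 12 libraries, and Runx2, Pdpn, Sp7 and Alpl were at 51.9, 34.9, 12.4 and 8.52 TPM. Alpl was at 0.852 TPM in DMSO+FGF2. The osteocyte genes Sost and Mepe had 0 reads, and Dmp1 had 26 reads in all. Of the genes that define other cell types, Adgre1, Epcam, Krt5, Adipoq and Lep had 0 reads, Ptprc had 2 and Cdh5 had 10. The marker lists of chondrocytes and endothelial cells summed to at most 28.79 and 27.98 TPM in any library, mostly from the integrin genes Itga10 and Itga2b, at 19.6 and 17.5 TPM. Cd68 was at 5.59 TPM, Comp at 1.70 TPM and Fabp4 at 1.46 TPM, and the other markers of these cell types were below 1 TPM on average.

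The 250 bases before the annotated start of Itga1, Itga11 and Itgb5 are shown because Itga1 and Itga11 are the subunits that fell with FGF2 and Itgb5 is the most abundant one that rose. They are RefSeq sequences of build GRCm38.p6, printed 5′ to 3′ on the gene's own strand, and the deposited quantification names another build. Itga1 lies on the minus strand at chr13:115101965-115102214, Itga11 on the plus strand at chr9:62677605-62677854 and Itgb5 on the plus strand at chr16:33829415-33829664. Capitals mark matches, on either strand, to the ETS core GGAAGT in Itga1 and Itga11 and to the SP1 motif GGGCGG in Itgb5.
Itga1: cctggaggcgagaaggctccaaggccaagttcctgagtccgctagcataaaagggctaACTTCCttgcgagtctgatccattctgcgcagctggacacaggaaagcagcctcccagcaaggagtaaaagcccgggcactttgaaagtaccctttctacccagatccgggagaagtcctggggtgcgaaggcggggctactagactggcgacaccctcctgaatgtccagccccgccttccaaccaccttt
Itga11: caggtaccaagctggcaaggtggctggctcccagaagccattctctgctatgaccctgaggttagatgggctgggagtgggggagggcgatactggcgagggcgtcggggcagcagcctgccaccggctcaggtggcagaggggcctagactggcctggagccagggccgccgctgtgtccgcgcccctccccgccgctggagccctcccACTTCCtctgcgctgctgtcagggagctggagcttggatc
Itgb5: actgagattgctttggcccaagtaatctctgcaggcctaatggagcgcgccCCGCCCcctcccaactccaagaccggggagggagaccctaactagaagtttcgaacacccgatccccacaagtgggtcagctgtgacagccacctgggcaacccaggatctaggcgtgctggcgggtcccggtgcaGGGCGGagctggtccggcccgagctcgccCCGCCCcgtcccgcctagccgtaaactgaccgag

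The Itga1 window had 1 ETS match, 192 to 187 bases before the start, and the Itga11 window had 1, 40 to 35 bases before it. An ETS match was present in 19.74% of all 32851 windows of this length in the table. The Itgb5 window had 3 SP1 matches and no ETS match, and 32.74% of all windows had an SP1 match. The AP-1 motif TGANTCA, the TEAD motif GGAATG, the RUNX motif TGTGGT, the TATA box TATAAA and the CArG box had no match in these 3 windows, and no capitalised match overlapped another. Of the 10 subunits, 8 had a window in the table. Itgav had 2 ETS matches, and Itga2, Itga3, Itga5 and Itgb1 had 0. SP1 matches were not particular to Itgb5: the window at the first start of Itga3 had 3, Itga5 had 2 and Itgb1 had 1. Itga1, Itga11, Itga2 and Itgav had 0 SP1 matches. These are matches of letters and not sites of binding.

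In DMSO the subunits fell into 3 tiers of level per length. Itgb1 was highest at 613.1 TPM and Itgb5 followed at 191.8 TPM. Itga5 at 83.6 TPM, Itgav at 70.1 TPM, Itga11 at 61.2 TPM and Itga3 at 34.5 TPM formed the middle tier. Itga1 at 6.64 TPM, Itga6 at 5.67 TPM and Itgb3 at 4.66 TPM were low, and Itga2 was at 0 in all 3 libraries. Each neighbour in this order was separated by non-overlapping libraries except Itga1 and Itga6, whose ranges overlapped. The collagen class was therefore carried by Itga11, whose TPM was 9.31 ± 1.11 times that of Itga1 (SD, n = 3).

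With FGF2 the order changed at Itga1, which went from the 7th place in DMSO to the 9th in DMSO+FGF2 at 2.83 TPM, below Itga6 at 7.98 TPM and Itgb3 at 4.19 TPM, with no overlap between neighbours. In both BGJ398 groups Itga11 stood above Itgav, at 61.9 against 58.7 TPM without FGF2 and at 59.2 against 57.3 TPM with it, but the libraries of the neighbours overlapped there. Itga2 stayed at or below 0.0223 TPM in every library, so the third collagen subunit of the 10 was near the limit of detection throughout.

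**Figure D1:**
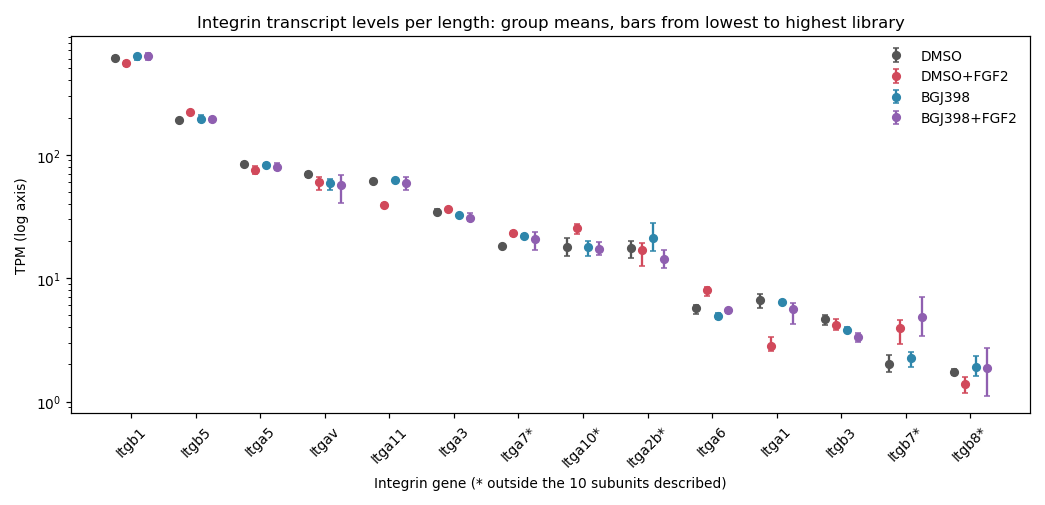
Level of the integrin genes with a mean of at least 1 TPM, on a log axis. Points are means of 3 libraries in each group, bars run from the lowest to the highest library, and stars mark integrin genes outside the 10 subunits. Itgb1 lies above 500 TPM in every group, and the DMSO+FGF2 point of Itga1, at 2.83 TPM, stands apart from its other groups.

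FGF2 in DMSO lowered both detected collagen-binding subunits and raised both laminin-binding subunits and Itgb5, by amounts that ran from 1.14-fold to 2.01-fold. The falls of Itga1 and Itga11 kept their calls in all 22 alternatives. The rises were less firm, with calls lost in 12 of 22 for Itga3, 4 for Itgb5 and 1 for Itga6. Itga10, a detected collagen-binding subunit outside the 10, rose by 0.47 ± 0.10 on the log2 scale (edgeR adjusted p = 0.0063). Among the 9 subunits tested, 3 rose, 2 fell and 4 did not pass the test, against 13.4% of all 12542 genes called in this comparison. The median log2 fold change was -0.06 for the 9 subunits and -0.0037 for all genes tested. Called means a Benjamini-Hochberg adjusted p under 0.05 over all genes, from edgeR's quasi-likelihood test. Overlap of libraries between groups is given as description only, and its share over all genes was not counted.

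Itga1 (ENSMUSG00000042284, chromosome 13) had 32.6, 29.3 and 31.5 CPM (counts scaled to library size) in the DMSO libraries and 14.7, 14.2 and 17.5 CPM in DMSO+FGF2. It had 29.7, 32.8 and 29.5 CPM in BGJ398 and 29.7, 25.7 and 29.0 CPM in BGJ398+FGF2. The 3 DMSO+FGF2 libraries were low and overlapped none of the other 9. The fall with FGF2 was 2.01-fold, from a mean of 31.2 ± 1.67 to 15.5 ± 1.78 CPM (SD, n = 3), or -1.01 ± 0.09 on the log2 scale (SE, edgeR adjusted p = 9.19e-06). Under BGJ398 the FGF2 difference was -0.12 ± 0.09 (95% interval -0.31 to 0.07, edgeR adjusted p = 1). The difference between these FGF2 changes, the interaction, was 0.89 ± 0.13 (edgeR adjusted p = 0.00128). In a culture of many cells, fewer cells that express a gene and less RNA per cell cannot be told apart.

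Itga11 (ENSMUSG00000032243, chromosome 9) had 187.1, 184.8 and 189.3 CPM in DMSO, and 119.0, 132.3 and 128.3 CPM in DMSO+FGF2. Its BGJ398 libraries had 192.8, 186.9 and 183.6 CPM, and those of BGJ398+FGF2 had 175.1, 170.1 and 196.8 CPM. As for Itga1, the DMSO+FGF2 libraries were below all others without overlap. FGF2 lowered Itga11 1.48-fold in DMSO, by -0.56 ± 0.06 on the log2 scale (edgeR adjusted p = 3.43e-05), and its difference under BGJ398 was -0.06 ± 0.06 (95% interval -0.18 to 0.07). The interaction was 0.51 ± 0.08 (edgeR adjusted p = 0.00358). Because Itga1 fell more steeply, the ratio of Itga11 to Itga1 TPM was 14.04 ± 1.53 in DMSO+FGF2. It was 9.31 ± 1.11 in DMSO and 10.8 ± 1.47 in BGJ398+FGF2. The margin was narrow, with the lowest DMSO+FGF2 library at 12.35 and the highest BGJ398+FGF2 library at 12.32. Itga1 TPM here includes the retained-intron transcript Itga1-206, which held 14.21 ± 13.55% of it in DMSO and 0% in DMSO+FGF2.

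Leaving out the 3 libraries that deviated together gave -0.96 for Itga1 and -0.60 for Itga11 with FGF2 in DMSO. Both kept their calls in every alternative tried for this comparison. The osteoblast-lineage list moved beside them. Of its 7 genes, 6 were lower and 1 was higher with FGF2 in DMSO, against 13.4% of all genes called. The summed level of the list was 4566 to 4822 TPM in DMSO+FGF2 against 7440 to 7724 TPM in DMSO. Nearly all of this sum came from Col1a2, Col1a1 and Sparc, so it says little about the other genes of the list. Col1a1 and Col1a2 are also counted among the collagen chains below. The part of this list in the fall of the collagen-binding subunits was not tested.

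Itga2, the remaining collagen-binding subunit of the 10, had 2 reads in DMSO+FGF2 replicate 2, 1 in BGJ398 replicate 1, 1 in BGJ398 replicate 3 and 0 in the other libraries. No difference was detectable at this depth.

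Itga3 (ENSMUSG00000001507, chromosome 11), whose receptor with Itgb1 binds laminins with the Lama3 or Lama5 chain, had 100.3, 102.7 and 97.6 CPM in DMSO and 114.6, 116.6 and 110.1 CPM in DMSO+FGF2. In BGJ398 it had 98.5, 90.4 and 91.5 CPM, and in BGJ398+FGF2 87.4, 88.7 and 97.6 CPM. The DMSO+FGF2 libraries were the highest of the 4 groups, without overlap. The rise with FGF2 was 1.14-fold, at 0.18 ± 0.06 on the log2 scale (edgeR adjusted p = 0.0456). This call was lost when any library of DMSO or DMSO+FGF2 was left out, with adjusted p from 0.0636 to 0.164, and also without BGJ398 replicate 2, BGJ398 replicate 3 or BGJ398+FGF2 replicate 1. It was lost as well with no filter on low counts (adjusted p = 0.0903) and with length-scaled TPM (adjusted p = 0.144).

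Itga6 (ENSMUSG00000027111, chromosome 2), a laminin receptor subunit that pairs with Itgb1 or Itgb4, had 10.6, 10.5 and 10.3 CPM in DMSO. FGF2 took it to 13.8, 14.1 and 15.2 CPM in DMSO+FGF2, while BGJ398 had 9.78, 9.37 and 9.36 CPM and BGJ398+FGF2 10.3, 10.4 and 10.0 CPM. The DMSO+FGF2 libraries again stood above all others. The rise was 1.37-fold, at 0.46 ± 0.08 on the log2 scale (edgeR adjusted p = 0.00135). Under BGJ398 the FGF2 difference was 0.11 ± 0.08 (edgeR adjusted p = 1), and the interaction of -0.35 ± 0.11 did not pass the test (edgeR adjusted p = 0.108).

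Itga6 reads were split between transcripts. The coding transcript Itga6-201 held 49.2 ± 9.76% of Itga6 TPM in DMSO and 37.8 ± 8.26% in DMSO+FGF2, and the processed transcript Itga6-203, which is annotated without a coding sequence, held 42.4 ± 2.55% and 44.1 ± 6.31%. Itga6-203 had 2.41 ± 0.32 TPM in DMSO and 3.50 ± 0.51 TPM in DMSO+FGF2, and Itga6-201 had 2.76 ± 0.30 and 3.02 ± 0.73 TPM. Counting only protein-coding transcripts, the FGF2 difference was 0.33 and the call was lost (edgeR adjusted p = 0.167).

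**Figure D2:**
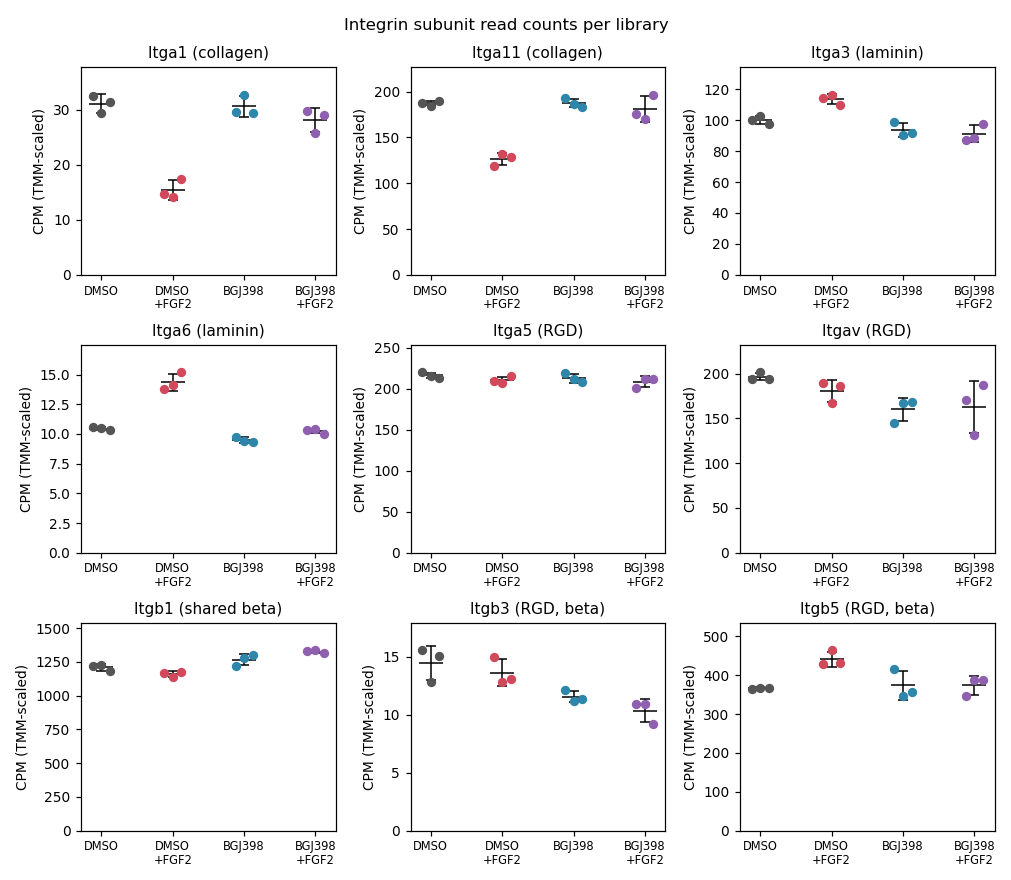
Library-size-scaled read counts (CPM) of the 9 tested subunits in every library, by group, each axis starting at 0. Coloured points are libraries, the black dash is the group mean and the bar 1 SD of 3 libraries. Itga1 and Itga11 are low only in DMSO+FGF2, while Itga5 lies between 200.7 and 220.0 CPM in every library.

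Among the RGD subunits, Itga5 (ENSMUSG00000000555, chromosome 15), the fibronectin receptor alpha subunit, varied least of the 9 tested. Its 12 libraries ran from 200.7 to 220.0 CPM, and all groups overlapped DMSO except BGJ398+FGF2, which ended at 212.6 CPM against a lowest DMSO library of 213.8 CPM. The FGF2 difference in DMSO was -0.04 ± 0.05 (95% interval -0.14 to 0.06, edgeR adjusted p = 0.634), an interval that leaves out changes as large as those of Itga1, Itga11 and Itga6. Fn1, which encodes its ligand fibronectin, was at 0.05 ± 0.10 (edgeR adjusted p = 0.814).

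Itgav (ENSMUSG00000027087, chromosome 2), the alpha subunit that pairs with Itgb3 and Itgb5, had 194.5, 201.4 and 194.5 CPM in DMSO and 189.6, 166.8 and 186.5 CPM in DMSO+FGF2. BGJ398 libraries had 145.3, 166.8 and 168.7 CPM and BGJ398+FGF2 libraries 171.1, 131.0 and 187.0 CPM. In each of the 3 groups other than DMSO, the lowest library was the one that deviated with the other 2, and all 9 treated libraries lay below the DMSO libraries. FGF2 in DMSO gave -0.12 ± 0.10 (edgeR adjusted p = 0.509), and BGJ398 without FGF2 gave -0.30 ± 0.10 (edgeR adjusted p = 0.398). Without the 3 deviating libraries the latter was smaller, at -0.23, but had an edgeR adjusted p of 0.00594. These libraries were picked for their spread, and genes called in this comparison went from 41 to 730 without them. The lower p is therefore no added support for a change in Itgav.

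Itgb5 (ENSMUSG00000022817, chromosome 16) had 364.2, 367.7 and 367.4 CPM in DMSO and 429.3, 463.7 and 431.4 CPM in DMSO+FGF2. It had 416.3, 347.4 and 357.5 CPM in BGJ398 and 345.9, 387.2 and 388.7 CPM in BGJ398+FGF2. The DMSO+FGF2 libraries were highest without overlap, and the highest library of DMSO+FGF2 and of BGJ398 was again the deviating one. FGF2 in DMSO raised Itgb5 1.21-fold, at 0.27 ± 0.07 on the log2 scale (edgeR adjusted p = 0.021), and the value was 0.23 without the 3 deviating libraries (edgeR adjusted p = 0.00154). The latter p has the same limit as that of Itgav. The call was lost without DMSO replicate 1, 2 or 3 or DMSO+FGF2 replicate 2, each left out alone, with adjusted p from 0.0673 to 0.0928. The shorter coding transcript Itgb5-207 held 24.6 ± 0.98% of Itgb5 TPM in DMSO+FGF2 and 19.6 ± 1.48% in DMSO. Its share varied widely in the other groups, at 13.1 ± 7.84% in BGJ398 and 15.2 ± 8.76% in BGJ398+FGF2. Libraries of the latter ran from 7.53 to 24.7%, so a shift with FGF2 was not shown.

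Itgb3 (ENSMUSG00000020689, chromosome 11), the beta subunit of the classical vitronectin receptor, had 15.6, 12.8 and 15.1 CPM in DMSO and 14.96, 12.9 and 13.1 CPM in DMSO+FGF2. It had 12.1, 11.2 and 11.4 CPM in BGJ398 and 11.0, 10.9 and 9.24 CPM in BGJ398+FGF2. The groups with and without FGF2 overlapped in DMSO, whereas every library with BGJ398 lay below every library without it. FGF2 in DMSO gave -0.08 ± 0.10 (edgeR adjusted p = 0.668). The ratio of Itgb5 to Itgb3 TPM was 41.4 ± 3.81 in DMSO, 53.9 ± 5.91 in DMSO+FGF2, 50.9 ± 1.08 in BGJ398 and 59.9 ± 7.79 in BGJ398+FGF2, so the DMSO libraries had the lowest ratios.

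Itgb1 (ENSMUSG00000025809, chromosome 8) had 1223, 1228 and 1182 CPM in DMSO and 1167, 1135 and 1174 CPM in DMSO+FGF2. It had 1219, 1281 and 1298 CPM in BGJ398 and 1328, 1335 and 1312 CPM in BGJ398+FGF2. The DMSO+FGF2 libraries were the lowest and the BGJ398+FGF2 libraries the highest of the 4 groups, without overlap, although the whole range was narrow. FGF2 in DMSO gave -0.06 ± 0.05 (95% interval -0.16 to 0.03, edgeR adjusted p = 0.415). Itgb1 TPM was 2.34 ± 0.06 times the summed TPM of the 7 alpha subunits in DMSO, 2.49 ± 0.02 times in DMSO+FGF2, 2.54 ± 0.04 times in BGJ398 and 2.68 ± 0.18 times in BGJ398+FGF2.

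The collagen class made up less of the alpha subunit transcripts with FGF2. Its share of the summed TPM of the 7 alpha subunits was 25.9 ± 0.80% in DMSO, 18.9 ± 1.21% in DMSO+FGF2, 27.7 ± 0.87% in BGJ398 and 27.2 ± 0.14% in BGJ398+FGF2 (SD, n = 3). The laminin class held 15.3 ± 0.73%, 20.1 ± 1.63%, 15.04 ± 0.46% and 15.3 ± 1.01% in the same order, and the RGD class 58.7 ± 0.89%, 61.0 ± 2.58%, 57.3 ± 1.32% and 57.5 ± 1.13%. The DMSO+FGF2 libraries had the lowest collagen and highest laminin shares, without overlap with any other group, while for the RGD share they overlapped all 3 other groups. The DMSO collagen shares also overlapped no other group, ending at 26.8% against a lowest BGJ398 library of 26.9%. The collagen class summed to 67.8 ± 1.81 TPM in DMSO and 42.1 ± 2.09 TPM in DMSO+FGF2, and the laminin class to 40.1 ± 1.53 and 44.6 ± 1.20 TPM. These shares are a description and were not tested.

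Itga10, a collagen-binding subunit known from cartilage and counted outside the 10, went the other way from Itga1 and Itga11. It rose from 48.3 ± 6.31 to 67.0 ± 5.81 CPM, by 0.47 ± 0.10 on the log2 scale (edgeR adjusted p = 0.0063), and with it the collagen class summed to 85.8 ± 4.56 TPM in DMSO and 67.7 ± 3.73 TPM in DMSO+FGF2. Its share of that sum was 20.9 ± 2.30% in DMSO and 37.7 ± 2.51% in DMSO+FGF2. Of the 31-base words in Itga10 transcripts, 31.8% also occur in another gene, Gm42957, on the same strand, so its value is uncertain. Such words made up at most 7.86% of the transcripts of any of the 10 subunits, for Itgb5, and 0 in Itga3 and Itgb1. For Itgav, 5.61% of the words occur in Gm13684 on the opposite strand, and reads of the pair cannot be told apart without strand.

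**Figure D3:**
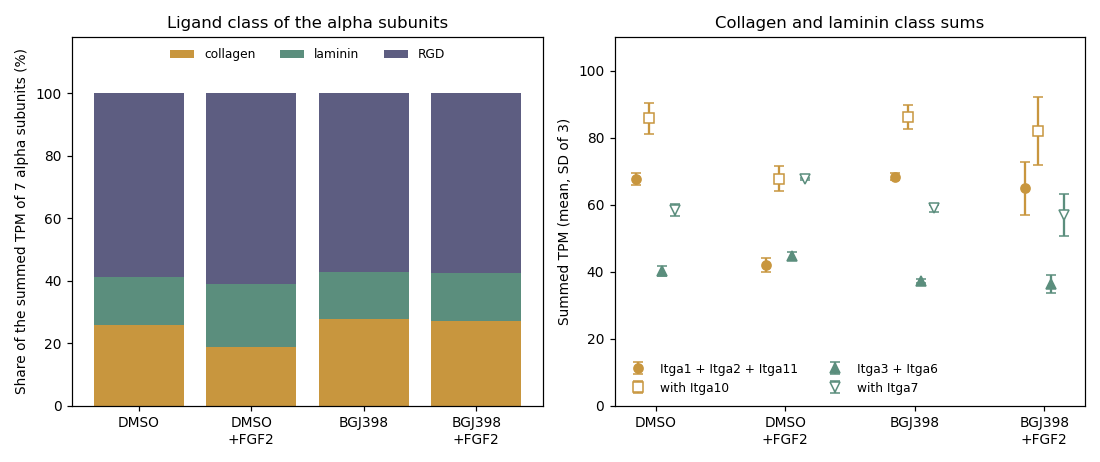
Left, mean share (%) of the summed TPM of the 7 alpha subunits held by each ligand class in each group. Right, summed TPM of the collagen and laminin classes, as means with SD of 3 libraries, with and without Itga10 and Itga7. The collagen share is lowest in DMSO+FGF2, at 18.9%, and lies from 25.9% to 27.7% in the other groups.

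Under BGJ398, FGF2 called 0 of the 9 tested subunits, and 0% of all genes were called. Across all 12542 genes, 0 passed in edgeR's test, 325 had an unadjusted p under 0.05 and 5 were called by DESeq2. The subunits ran from -0.16 for Itgb3 to 0.11 for Itga6, with a median of -0.03, and all 9 had edgeR adjusted p = 1. The widest 95% interval was that of Itgb3, from -0.39 to 0.07, and the narrowest that of Itgb1, from -0.03 to 0.16. Differences of the size seen for Itga1, Itga11 and Itga6 in DMSO lay outside the intervals of these 3 genes here.

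BGJ398 without added FGF2 also called 0 of the 9 subunits, with 0.327% of all genes called. The lowest values were -0.32 ± 0.10 for Itgb3 (edgeR adjusted p = 0.349) and -0.30 for Itgav. Itga1 was at -0.02 ± 0.09 and Itga11 at 0.01 ± 0.06, with 95% intervals from -0.21 to 0.17 and from -0.12 to 0.13. The collagen-binding subunits thus showed no difference beyond their spread when the inhibitor was added without FGF2. The median over the subunits was -0.02, and over all genes 0.00272.

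BGJ398 in the presence of FGF2 raised Itga1, Itga11 and Itgb1 and lowered Itga3, Itga6, Itgb3 and Itgb5, which was 7 of the 9 tested subunits, against 22.2% of all genes called. This comparison shares the DMSO+FGF2 libraries with that of FGF2 in DMSO, so the values stand side by side and are not independent. Itga1 rose 1.82-fold, at 0.87 ± 0.09 on the log2 scale (edgeR adjusted p = 2.48e-05), and Itga11 1.43-fold, at 0.51 ± 0.06 (edgeR adjusted p = 5.94e-05). Itga6 fell by 0.49 ± 0.08 (edgeR adjusted p = 0.000699) and Itga3 by 0.32 ± 0.06 (edgeR adjusted p = 0.00151).

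Itgb1 rose 1.14-fold, at 0.19 ± 0.05 on the log2 scale (edgeR adjusted p = 0.00818), and it is the call of these 7 with the smallest change. Itgb3 fell 1.32-fold, at -0.40 ± 0.11 (edgeR adjusted p = 0.016), with no overlap between groups. Its call was lost without DMSO+FGF2 replicate 1 (adjusted p = 0.0728) or BGJ398+FGF2 replicate 3 (adjusted p = 0.0646). Itgb5 fell 1.18-fold, at -0.24 ± 0.07 (edgeR adjusted p = 0.0255), and lost its call without DMSO+FGF2 replicate 2 or 3 or BGJ398+FGF2 replicate 1, with adjusted p from 0.0508 to 0.113, and with length-scaled TPM (adjusted p = 0.0807). Itga5 at -0.01 ± 0.05 and Itgav at -0.15 ± 0.10 did not pass (edgeR adjusted p = 0.857 and 0.337). All 7 calls held without the 3 deviating libraries.

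**Figure D4:**
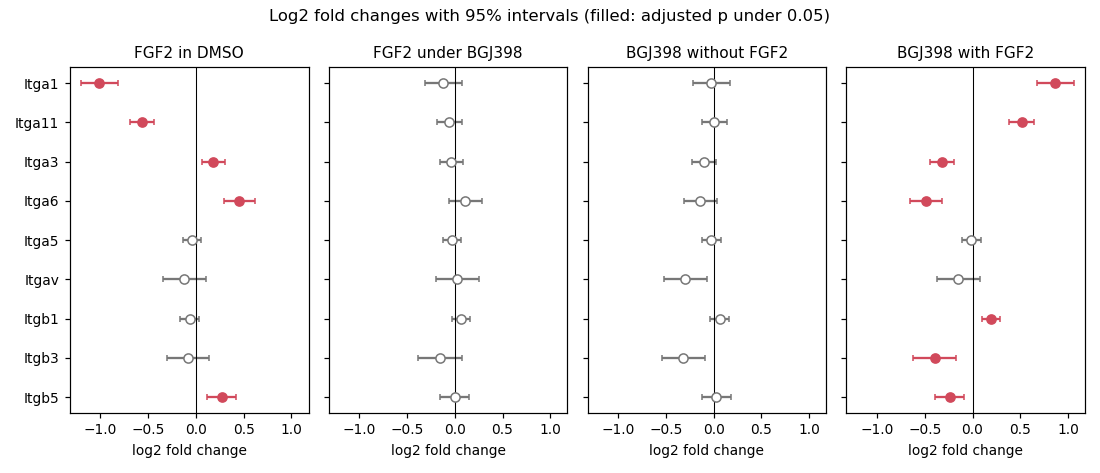
Log2 fold changes of the 9 tested subunits in 4 comparisons, with 95% intervals from edgeR; filled red points have an adjusted p under 0.05. In all, 5 filled points stand under FGF2 in DMSO, 7 under BGJ398 with FGF2 and none in the other panels, with Itga1 the farthest from 0 at -1.01 and 0.87.

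A difference in FGF2 response, taken as its change with BGJ398 less the one in DMSO, passed for Itga1 and Itga11 and for no other subunit, which was 2 of 9 against 4.24% of all genes. For Itga3 it was -0.22 ± 0.08 (edgeR adjusted p = 0.165), for Itgb5 -0.27 ± 0.10 (edgeR adjusted p = 0.166) and for Itgb1 0.13 ± 0.06 (edgeR adjusted p = 0.326). For these subunits and Itga6, a difference in the FGF2 response with and without the inhibitor was therefore not shown. Both calls held in all 21 alternatives, including those without the 3 deviating libraries, where the values were 0.87 for Itga1 and 0.60 for Itga11.

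BGJ398+FGF2 against DMSO called 0 of the 9 subunits, with 0.734% of all genes called. Itgb3 came nearest, at -0.48 ± 0.10 (edgeR adjusted p = 0.0531), and it passed in DESeq2 (adjusted p = 0.00701). Itgav was at -0.27 ± 0.10 (edgeR adjusted p = 0.272) and Itgb1 at 0.13 ± 0.05 (edgeR adjusted p = 0.226). Itga1 was at -0.14 ± 0.09, with a 95% interval from -0.33 to 0.05, and Itga11 at -0.05 ± 0.06, with an interval from -0.18 to 0.08. Without the 3 deviating libraries, Itgb3 and Itgb1 passed, with edgeR adjusted p of 0.0182 and 0.0346. Those libraries were picked for their spread, and genes called in this comparison went from 92 to 861 without them.

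The other integrin genes were mostly scarce. Of 16, 10 were tested, and FGF2 in DMSO raised 4 and lowered 1, against 13.4% of all genes called. Itga7, a laminin-binding subunit known from muscle, rose by 0.43 ± 0.08 (edgeR adjusted p = 0.00202) from 40.0 ± 0.31 to 53.8 ± 1.27 CPM. The RGD-binding subunit Itga8, at 2.25 ± 0.37 CPM in DMSO, fell by 1.45 ± 0.29 (edgeR adjusted p = 0.00491). The leukocyte beta subunits Itgb2 and Itgb7 rose by 1.55 ± 0.37 and 0.99 ± 0.30 (edgeR adjusted p = 0.0128 and 0.0402), from 0.727 and 2.99 CPM. The Itgb2 call was lost without DMSO replicate 2 or 3 or DMSO+FGF2 replicate 2, and the Itgb7 call when DMSO replicate 1, 2 or 3, DMSO+FGF2 replicate 1 or 2 or BGJ398 replicate 3 was left out. Without DMSO replicate 3 or DMSO+FGF2 replicate 2, 3 other integrin genes were called in all.

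Macrophage markers were near 0 apart from Cd68. The summed level of the 5 macrophage genes was 9.72 to 10.9 TPM in DMSO+FGF2 and 2.52 to 4.25 TPM in DMSO, almost all of it from Cd68 at 10.3 and 2.92 TPM. Ptprc, which marks all leukocytes, had 2 reads and Adgre1 had 0, and Itgam, the usual alpha partner of Itgb2, had 5 reads in the 12 libraries. Itga2b at -0.02 ± 0.12 and Itgb8 at -0.20 ± 0.20 did not pass.

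Genes for collagen ligands fell with FGF2 in DMSO. Of 12 tested, 11 fell and 0 rose, against 13.4% of all genes called, with a median of -0.57 against -0.0037 over all genes. Col1a1, the main bone collagen chain, went from 9485 ± 360 to 5912 ± 714 CPM, at -0.68 ± 0.09 (edgeR adjusted p = 0.000232). Col11a1, a minor fibrillar chain, had the lowest value at -1.38 ± 0.09, and the basement membrane chains Col4a1 and Col4a2, ligands of Itga1 with Itgb1, were at -0.79 ± 0.08 and -0.85 ± 0.09. With BGJ398 in the presence of FGF2, 11 of the 12 rose and 0 fell, against 22.2% of all genes called. In the interaction 9 were higher, against 4.24% of all genes called. Of 3 collagen receptors outside the integrins that could be tested, 0 passed with FGF2 in DMSO, with Ddr2 at -0.05 ± 0.10 (edgeR adjusted p = 0.811) and Mrc2 at 0.08 ± 0.06 (edgeR adjusted p = 0.401).

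Laminin chains did not move in 1 direction. Of 9 tested, 1 rose and 3 fell with FGF2 in DMSO, against 13.4% of all genes called, with a median of -0.36. Lama5, a chain of the laminins that Itga3 and Itga6 receptors bind, rose by 0.57 ± 0.14 (edgeR adjusted p = 0.0162). Lama4 fell by 0.43 ± 0.08, Lamb2 by 0.36 ± 0.06 and Lamc1 by 0.45 ± 0.09. The Lama5 call was lost without DMSO replicate 2 or 3 or DMSO+FGF2 replicate 3, and also with length-scaled TPM (adjusted p = 0.518).

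Of 17 tested genes for RGD proteins and related matricellular ligands, 2 rose and 10 fell with FGF2 in DMSO, against 13.4% of all genes called, with a median of -0.44. Spp1, which encodes osteopontin, a ligand of Itgav receptors, rose 2.54-fold from 377 ± 21.8 to 957 ± 94.0 CPM, at 1.34 ± 0.08 (edgeR adjusted p = 3.49e-07). Npnt, which encodes the Itga8 ligand nephronectin, fell by 1.90 ± 0.08, Postn by 1.54 ± 0.07 and Tnc by 1.40 ± 0.08. BGJ398 in the presence of FGF2 raised 11 of the 17 and lowered 2, against 22.2% of all genes called. The interaction passed for 10, against 4.24% of all genes.

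Of 24 tested adaptors that join integrin tails to actin, 6 rose and 1 fell with FGF2 in DMSO, against 13.4% of all genes called, with a median of 0.03. Parvb, a partner of integrin-linked kinase, rose by 0.58 ± 0.07 (edgeR adjusted p = 0.000168), and the focal adhesion proteins Zyx, Tns2 and Pxn rose by 0.34 ± 0.05, 0.31 ± 0.06 and 0.18 ± 0.05. Tln2, a talin, fell by 0.44 ± 0.06 (edgeR adjusted p = 0.000445). Ilk, which encodes integrin-linked kinase, was at 0.03 ± 0.06 (edgeR adjusted p = 0.8). The Pxn call was lost when BGJ398 replicate 2 or any library of DMSO or DMSO+FGF2 was left out, and 4 adaptors in all were called without DMSO replicate 1 or 3. With BGJ398 in the presence of FGF2, where 22.2% of all genes were called, 3 adaptors rose and 6 fell, Tln2 among the former at 0.58 ± 0.06 and Parvb among the latter at -0.55 ± 0.07.

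Among 11 membrane partners of integrins, 3 rose and 1 fell with FGF2 in DMSO, against 13.4% of all genes called. Cav1, the caveola protein, rose by 0.38 ± 0.06 (edgeR adjusted p = 0.0011), Cd47, an Itgav and Itgb3 partner, by 0.22 ± 0.06 (edgeR adjusted p = 0.024) and the tetraspanin Cd63 by 0.32 ± 0.09 (edgeR adjusted p = 0.0369). The tetraspanin Cd9 fell by 0.23 ± 0.06 (edgeR adjusted p = 0.0194), and Slc3a2 at -0.23 ± 0.08 did not pass (edgeR adjusted p = 0.062). With BGJ398 in the presence of FGF2, 2 rose and 0 fell, Cd9 among them at 0.45 ± 0.06, which is no larger a share than the 22.2% of all genes called. Leaving out 1 library of DMSO or DMSO+FGF2 left 1 or 2 calls with FGF2 in DMSO, and of the 4 only that of Cav1 held each time. The count for BGJ398 with FGF2 ran from 1 to 7 over the alternatives.

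Likeness to each called subunit was measured as the root mean square difference between log2 CPM centred on each gene's mean, over 12 libraries and 10361 protein-coding genes. The genes nearest to Itga1 were Abi3bp (0.0893), Kctd12 (0.104) and Mef2c (0.108), set against a spread of 0.427 for Itga1 itself. Nearest to Itga11, with a spread of 0.246, were Col8a2 (0.0507), Scube3 (0.0646) and Mxd4 (0.0683). Itga6 was nearest to Hexdc (0.0577), Itga3 to Gdf11 (0.0351) and Itgb5 to Plbd2 (0.0287), with spreads of 0.229, 0.134 and 0.132.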

How the data were processed

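Polyadenylated RNA of 12 Ocy454 libraries was compared in 4 groups of 3, taken with their replicate numbers from the sample titles. Per the submitters' processing notes, reads were quantified with Salmon on genome build GRCm39. Salmon's version and settings for strand and bias: not given in the sources used here. Each of 116178 transcripts has a deposited expected count, TPM and effective length, per the file headers. The authors' expected counts are not scaled, whereas their TPM are corrected for length and scaled within each library. Effective lengths are the authors' too and entered only 1 alternative, the length-scaled TPM.

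Counts and TPM were summed per gene with the GENCODE M21 annotation by transcript identifier, which matched 114656 transcripts and left 1522 out of library sizes and tests. Summed expected counts were rounded and tested with edgeR 4.0.16 (R 4.3.3): filterByExpr by group, TMM, and 1 quasi-likelihood fit of 4 group means to all 12 libraries, with Benjamini-Hochberg adjustment over 12542 genes and a threshold of 0.05. All tests are 2-sided, and the biological coefficient of variation was 8.49%. A standard error is the absolute log2 fold change divided by the square root of F. Alternatives used DESeq2 1.42.0, limma 3.58.1, other filters and scalings, the replicate number as a block, and each library left out. CPM are TMM-scaled and compare a gene between libraries, and TPM compare genes.

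The 10 subunits and all gene lists were chosen with earlier results of these data known, and 1 laminin-list gene is not reported here. Named genes were all subunits, other integrins with a mean of at least 1 TPM, and per list up to 4 called genes with the smallest p and up to 2 with the highest TPM in FGF2 in DMSO and in BGJ398 with FGF2. The osteocyte genes were chosen after their values were seen. Promoter windows are RefSeq sequences, and coordinates of the deposited build were not used.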

Additional observations from a re-analysis of the deposited data

Results flagged for a closer look

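Among the genes named, 19 had an FGF2 change under BGJ398 that differed from that in DMSO by edgeR's interaction test with an adjusted p under 0.05. Over all genes 4.24% passed, and list genes were named partly for a small p in other comparisons. Values are log2 differences, change under BGJ398 minus change in DMSO. The subunits Itga1 (0.89) and Itga11 (0.51) were flagged in this way. Of other integrin genes, Itga8 was at 1.62 and Itga7 at -0.48, lost in 11 of 20 and 8 of 21 alternatives. Among adaptors, Tln2 was at 0.47, Parvb at -0.41 and Zyx at -0.31, the calls of Parvb and Zyx being lost in 14 and 12 of 21 alternatives. Collagen chains were at 0.65 for Col1a1, 0.53 for Col1a2, 0.58 for Col3a1, 0.68 for Col4a1, 0.75 for Col4a2, 0.42 for Col5a2 and 1.28 for Col11a1. The laminin chain Lamb2 was at 0.34, lost in 11 of 21. RGD proteins and related matricellular ligands were at -1.30 for Spp1, 1.82 for Npnt, 1.55 for Postn and 1.27 for Tnc.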

How the results depend on the processing

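Of 1179 alternative values of the subunits, 1109 kept direction and side of the threshold, 25 lost a call, 6 gained one and 39 changed sign. For the other named genes it was 2167, 135, 63 and 28 of 2393. Leaving out 1 library gave 3 to 5 called subunits with FGF2 in DMSO, 3 of them without DMSO replicate 1, 2 or 3 or DMSO+FGF2 replicate 2. Without the 3 deviating libraries, an alternative chosen after seeing the data, BGJ398 without FGF2 called 1 subunit and BGJ398+FGF2 against DMSO called 2. The latter comparison called 1 with DESeq2, with no filter and with at least 5 CPM in 3 libraries. With only the groups of the contrast, 5 subunits were called for BGJ398 with FGF2, where Itgb1 and Itgb5 had edgeR adjusted p of 0.0526 and 0.0516. The causes were not tested.

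With expected counts in place of TPM, the collagen share was 29.4% in DMSO, 31.4% in BGJ398, 21.5% in DMSO+FGF2 and 30.6% in BGJ398+FGF2. The RGD share was then 55.7%, 53.7% and 54.5% in DMSO, BGJ398 and BGJ398+FGF2. In DMSO+FGF2 it stayed within the 61.0 ± 2.58% found with TPM. Unlike with TPM, the RGD shares of the DMSO+FGF2 libraries then lay above those of all other libraries. Itga10 and Itga7 were counted in as an alternative chosen after seeing the data. In the order DMSO, BGJ398, DMSO+FGF2 and BGJ398+FGF2, the collagen shares were then 28.8%, 30.1%, 25.0% and 29.7%, the laminin shares 19.6%, 20.6%, 25.0% and 20.6%, and the RGD shares 51.6%, 49.4%, 50.1% and 49.7%.

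Sign changes among the subunits were of values that were not called, given here as log2 fold changes. For FGF2 under BGJ398, Itgb5 was at -0.00390 with DESeq2, -0.00387 with its size factors, -0.00352 with no filter, -0.010 with at least 5 CPM, -0.00843 with only 2 groups and -0.00471 with coding transcripts, which also gave -0.048 for Itga6. Length-scaled TPM gave -0.019 for Itgav there and 0.038 for Itga5 with BGJ398 in FGF2. For the interaction, Itga5 was at -0.00337 with at least 5 CPM and Itgb3 at 0.028 with coding transcripts. Without the 3 libraries, Itga3 and Itga11 were at 0.020 and 0.00137 for FGF2 under BGJ398. Itga1, Itga11 and Itgb5 were then at 0.00105, -0.014 and -0.056 for BGJ398 without FGF2, and Itgb5 at -0.000539 for BGJ398+FGF2 against DMSO. Of the other genes, Itgb7 and Lama5 turned from called falls with BGJ398 in FGF2 to 0.26 and 0.093 with length-scaled TPM, and their interactions to 0.11 and 0.34. Fn1 with BGJ398 in FGF2 was at 0.040 with length-scaled TPM and 0.12 without the 3 libraries. With FGF2 in DMSO, leaving out the 3 gave -0.000793 for Fn1, 0.037 for Itga2b and 0.025 for Ddr2, and the interaction of Ilk was then -0.042. Itga2b was at 0.00668 with FGF2 in DMSO in length-scaled TPM and at 0.11 with BGJ398 in FGF2 in coding transcripts.

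Leaving out 1 library gave values on both sides of 0 for 18 results. With FGF2 in DMSO they ran from -0.14 to 0.083 for Itga2b, -0.000998 to 0.10 for Fn1 and -0.095 to 0.025 for Ddr2. With FGF2 under BGJ398 they ran from -0.086 to 0.00496 for Itga3, -0.084 to 0.16 for Itgav and -0.049 to 0.085 for Itgb5. With BGJ398 without FGF2 they ran from -0.074 to 0.011 for Itga1, -0.014 to 0.022 for Itga11 and -0.056 to 0.079 for Itgb5. With BGJ398 in FGF2 they ran from -0.028 to 0.013 for Itga5, -0.10 to 0.076 for Itga2b, -0.13 to 0.079 for Fn1 and -0.18 to 0.039 for Ddr2. The interaction ran from -0.00583 to 0.037 for Itga5, -0.13 to 0.00608 for Itgb3, -0.11 to 0.34 for Itgb8, -0.019 to 0.079 for Ilk and -0.12 to 0.097 for Ddr2.

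Deviations of same-numbered libraries from their group means correlated at -0.146 to 0.239. Between DMSO+FGF2 and BGJ398+FGF2 the correlations were 0.0786, 0.239 and 0.0934 for replicates 1, 2 and 3. With 3 libraries per group, these values cannot show whether the replicate numbers pair the libraries. With the replicate number as a block, 4 subunits were called with FGF2 in DMSO, Itga3 losing its call (edgeR adjusted p = 0.0787). In the block 7 were called for BGJ398 with FGF2, 2 for the interaction and 0 in each of the other 3 comparisons. Counts over all genes moved by over 1.5 times in places. For FGF2 in DMSO 1680 genes became 1018 with 1 library left out and 2611 without the 3 libraries. For BGJ398 without FGF2 41 genes became 9 to 104 with 1 library left out, 730 without the 3 libraries, 153 with DESeq2 and 21 in the block. For BGJ398 with FGF2 2782 became 1794 with only its groups, and for the interaction 532 became 328 to 956 with 1 library left out and 1038 without the 3. For BGJ398+FGF2 against DMSO 92 became 11 to 114 with 1 library left out, 861 without the 3 libraries and 36 in the block. FGF2 under BGJ398 called 0 to 6 genes. Depth limits Itga2, whose few reads allow no comparison.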
